A study of Mus musculus with 6 samples.

Results

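Voltage-gated sodium and calcium channels are the proteins that turn a change of membrane voltage into an inward current of sodium or calcium. The genes described here have a symbol that begins with Scn or with Cacna, Cacnb or Cacng and code for a channel subunit. A probe set, the group of short array probes that gives 1 value for a transcript, was taken where the platform annotation gave it exactly 1 gene. That gave 82 probe sets of 34 genes, out of 45037 probe sets in all and 18193 genes named by 1-gene probe sets. The rule uses gene symbols and no measured value. Alpha subunits accounted for 43 probe sets of 17 genes and auxiliary subunits for 39 probe sets of 17 genes. Scn4a, Cacna1i and Cacnb3 were not analysed here.

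The study profiled whole brains, each on its own Affymetrix array, from 3 male mice of 2 months heterozygous for a knockout of periphilin (Pphln1) and from 3 wild-type C57BL/6 littermates. Periphilin belongs to HUSH, a complex that keeps retroelements silent by way of histone methylation. Neither the disrupted part of the gene nor the strain in which the allele was made is given in the sources used here. Since a whole brain was measured, fewer cells of a type and less RNA per cell cannot be told apart.

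The alpha subunit, written alpha1 for calcium channels, forms the pore and carries the voltage sensor. Each alpha subunit is a single long chain of homologous repeats that each cross the membrane several times. Auxiliary subunits modify it: sodium channel beta subunits are single-pass membrane proteins with an immunoglobulin-like fold, calcium channel beta subunits bind the alpha1 chain from the cytoplasm and help it reach the membrane, and alpha2delta subunits sit on the outer face and promote surface expression. The gamma family includes the muscle channel subunit Cacng1 and several proteins, among them stargazin (Cacng2), that in the brain act mainly as partners of AMPA-type glutamate receptors.

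Some general values frame the results. The deposited signals are linear and were scaled by the authors, as the mean of the central 96% of values was 150 on every array, and array medians lay between 31.15 and 34.5. The log2 values of any pair of arrays correlated at 0.978 to 0.985. Differences are given as heterozygous minus wild type on the log2(signal + 16) scale, which understates changes of dim probe sets. A probe set was tested with limma where its mean lay above the 40th percentile of all probe sets, a signal of 18.4, called the dim limit below. Across the 27022 probe sets tested, 4 were called at a Benjamini-Hochberg adjusted p below 0.05. At the brighter Pphln1 probe set, 1434822_at, the log2 difference was 0.08 (SE 0.11), with a 95% confidence interval of -0.17 to 0.33. At the dimmer 1435766_at it was -0.36 (SE 0.18), and every heterozygous value lay below every wild-type value. Of all probe sets tested, 4.81% did so. The limma adjusted p was 0.969 at the brighter and 0.956 at the dimmer probe set. Of the markers fixed for neurons, 7 of 7 were measured, and the summed signal of their brightest probe sets was 26799.4 to 31706.1 in heterozygous brains and 27247.7 to 28304.8 in wild-type brains. Pituitary genes set arrays apart: growth hormone, prolactin, Pomc and Cga summed to 21142.9 on wild type 1, to 6655.2 on heterozygous 3, and to as little as 147.5 on another heterozygous array.

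The 250 bases upstream of annotated starts are shown for 4 genes, picked after their values were seen: Cacna1d had the most CG dinucleotides among the members measured above the dim limit, Scn8a and Cacng7 had the smallest unadjusted p on the higher and the lower side, and Cacna1s, the skeletal muscle alpha1 gene, lay below the limit. The sequences are from RefSeq on build GRCm38.p6, read 5′ to 3′ on the gene's strand up to the base before the start, and capitals mark each CG dinucleotide.
Cacna1d, chr14:30353487-30353736, minus strand, 50 CG dinucleotides: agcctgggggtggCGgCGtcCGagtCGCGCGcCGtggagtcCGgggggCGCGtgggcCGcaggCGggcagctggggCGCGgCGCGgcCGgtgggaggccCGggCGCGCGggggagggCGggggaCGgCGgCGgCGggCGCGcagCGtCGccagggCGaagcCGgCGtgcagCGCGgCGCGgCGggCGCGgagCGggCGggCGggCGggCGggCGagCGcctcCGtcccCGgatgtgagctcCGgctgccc
Scn8a, chr15:100870395-100870644, plus strand, 30 CG dinucleotides: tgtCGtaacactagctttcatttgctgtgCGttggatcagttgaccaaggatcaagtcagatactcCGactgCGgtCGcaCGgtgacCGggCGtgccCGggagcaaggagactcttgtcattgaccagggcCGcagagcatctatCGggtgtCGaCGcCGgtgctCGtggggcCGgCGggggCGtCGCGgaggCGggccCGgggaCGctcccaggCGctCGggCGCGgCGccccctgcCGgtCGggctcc
Cacng7, chr7:3332575-3332824, plus strand, 9 CG dinucleotides: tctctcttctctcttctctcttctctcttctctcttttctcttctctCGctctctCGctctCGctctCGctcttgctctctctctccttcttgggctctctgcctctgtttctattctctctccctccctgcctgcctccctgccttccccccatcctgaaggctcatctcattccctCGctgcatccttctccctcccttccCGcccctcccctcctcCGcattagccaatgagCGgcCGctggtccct
Cacna1s, chr1:136052561-136052810, plus strand, 9 CG dinucleotides: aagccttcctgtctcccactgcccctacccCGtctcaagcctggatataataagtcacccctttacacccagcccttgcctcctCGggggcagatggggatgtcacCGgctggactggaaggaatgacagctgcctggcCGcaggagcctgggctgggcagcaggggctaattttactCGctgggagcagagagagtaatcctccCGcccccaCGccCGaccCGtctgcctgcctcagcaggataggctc

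Starts were found for 26 of the 34 genes, 36 starts in all. At the start richest in CG of each gene, the 6 genes not above the dim limit held 3 to 9 CG dinucleotides, with a median of 5. Their bases were 41.6 to 62.4% G or C. The 20 genes above the limit held 0 to 50, with a median of 24.5, and 13 of the 20 had 10 or more. Among all 32851 starts of the table, counted singly, the median was 6, and 37.8% had 10 or more. Taking the richest start of each gene favours genes with several starts, all of which were above the limit. These counts are therefore not on the same footing between genes above and below the limit, nor beside the share of all starts. The genes above the limit ran from Cacng8, with 0, through Scn7a, Scn1a and Cacna1e, with 3, 4 and 6, to Cacna1d, with 50. The motif GGGCGG, searched on both strands and holding a CG that is also among those counted, stood in the window of 12 of the 20 genes above the limit and of 2 of the 6 others, against 32.7% of all starts. These windows are the same richest starts, so the same caution holds.

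Most channel genes gave a signal above the dim limit. Of the 34 genes, 27 had at least 1 probe set above it, and of the 82 probe sets 58 did, or 70.7% against 60% of all probe sets by construction. By class, 28 of 43 alpha probe sets (65.1%) and 30 of 39 auxiliary probe sets (76.9%) were above the limit. At gene level this was 12 of 17 alpha and 15 of 17 auxiliary genes. The signals of different probe sets depend on their own probes and are not on a common scale, so alpha and auxiliary levels are set side by side without a test. The brightest probe sets of the 12 alpha genes had mean signals of 30.7 to 1688.1, with a median of 224, and those of the 15 auxiliary genes 20.5 to 1181.5, with a median of 278.1. The ranges overlapped.

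**Figure D1:**
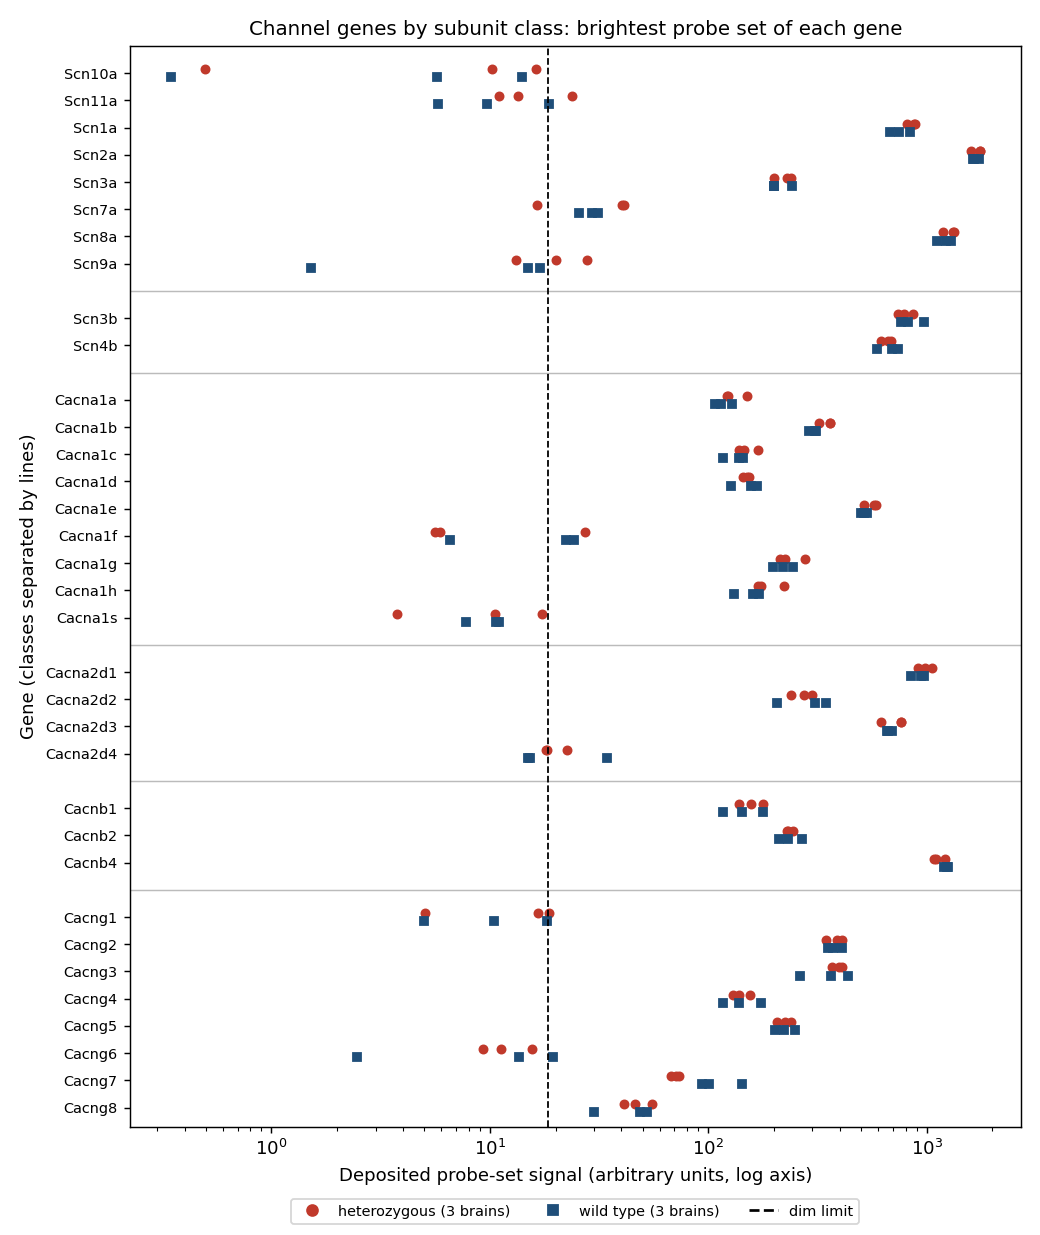
Signal of each channel gene in the 6 brains (x axis, arbitrary units on a log scale; circles heterozygous, squares wild type), 1 row per gene at its brightest probe set, classes separated by lines. The dashed line is the dim limit of 18.4; Scn9a, Scn10a, Scn11a, Cacna1f, Cacna1s, Cacng1 and Cacng6 scatter around or below it, and Cacng7 is the row whose genotypes stand most clearly apart.

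The 7 genes with no probe set above the limit are known mainly from tissues outside the brain. Scn9a, Scn10a and Scn11a code for sodium channels of peripheral sensory neurons. Their brightest probe sets measured 1.52 to 27.9, 0.345 to 16.2 and 5.81 to 23.8 over the 6 brains. Of the 4 listed sensory neuron markers 2 were measured: Trpv1, the capsaicin receptor, at 1.86 to 18.2, and peripherin (Prph), above the dim limit on every array, at 23.9 to 58.2. Cacna1s and Cacng1, subunits of the skeletal muscle calcium channel, measured 3.76 to 17.3 and 4.99 to 18.6. Of the muscle markers, Tnnt3 measured 0.898 to 15 and Ckm 6.07 to 36.9, Acta1 measured 91.8 to 179, and the 4 muscle markers summed to 155.8 to 270.2 in heterozygous and 117.4 to 152.9 in wild-type brains. The 3 Ckm values of heterozygous brains all lay above those of wild-type brains, and the difference was 0.75 on the log2 scale (SE 0.21, limma adjusted p = 0.956). Cacna1f, the alpha1 subunit of photoreceptor synapses, measured 5.63 to 27.3. The retinal marker Pde6b measured 0.766 to 30.4 and Sag 9.77 to 97.2, each highest on wild type 2, and 2 of 3 listed retinal markers were measured. Cacng6, a gamma subunit of muscle, measured 2.46 to 19.5 at its brighter probe set. Dimness of a probe set is a statement about its signal, and it was not tested whether these transcripts were absent.

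With at most 3 other protein-coding genes between them in the RefSeq order, 15 members fell into 5 clusters. On chromosome 2 the order was Scn3a, Scn2a, Scn1a, Scn9a and Scn7a. The first 3 of these, the alpha subunits of central neurons, were well above the limit, Scn9a was below it, and Scn7a, a relative that senses sodium more than voltage, stood just above it at means of 32.7 and 28.7 in heterozygous and wild-type brains. On chromosome 11, Cacng4 and Cacng5 were above the limit and the adjoining muscle gene Cacng1 was not. On chromosome 7, Cacng7 and Cacng8 were above it and the adjoining Cacng6 was not. The chromosome 9 pair, Scn10a and Scn11a, lay below the limit. On chromosome 6, both Cacna1c and Cacna2d4 passed it, the second barely, at 19.6 and 21.4.

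In the comparison of genotypes, no channel gene passed the test. Of the 58 probe sets, 0 were called by limma, against 0.0148% of all probe sets tested, and the lowest adjusted p was 0.956. At an unadjusted p below 0.05 there was 1 higher probe set, of Scn8a, against 2.43% of all probe sets (1.72% of the members), and 1 lower one, of Cacng7, against 2.40% (also 1.72%). The genotypes did not overlap, with all heterozygous values above all wild-type ones, for 3 probe sets, or 5.17%, against 5.43% of all. They did not overlap in the opposite direction for 3 others, again 5.17%, against 4.81% of all. None of these shares stood well above its background. The p-values rest on the spread between 3 brains of each genotype, moderated by limma toward its trend over all probe sets tested.

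The intervals limit how large a difference could have gone unseen, and they bound the signal plus 16, so that a dim probe set's signal itself could differ by more. For all 27 genes at their brightest probe set, the 95% confidence interval of the difference excluded both a doubling and a halving of signal plus 16. On the same scale it excluded a change of 1.5-fold or more in either direction for 25 of the 27, the exceptions being Cacng7 and Scn7a. Over the 58 probe sets, 56 excluded a doubling and a halving of signal plus 16, and 45 excluded a 1.5-fold change of it. The pooled spread between brains of a genotype had a median of 0.136 on the log2 scale over the 27 genes and 0.167 over the 58 probe sets, against 0.168 over all probe sets tested.

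**Figure D2:**
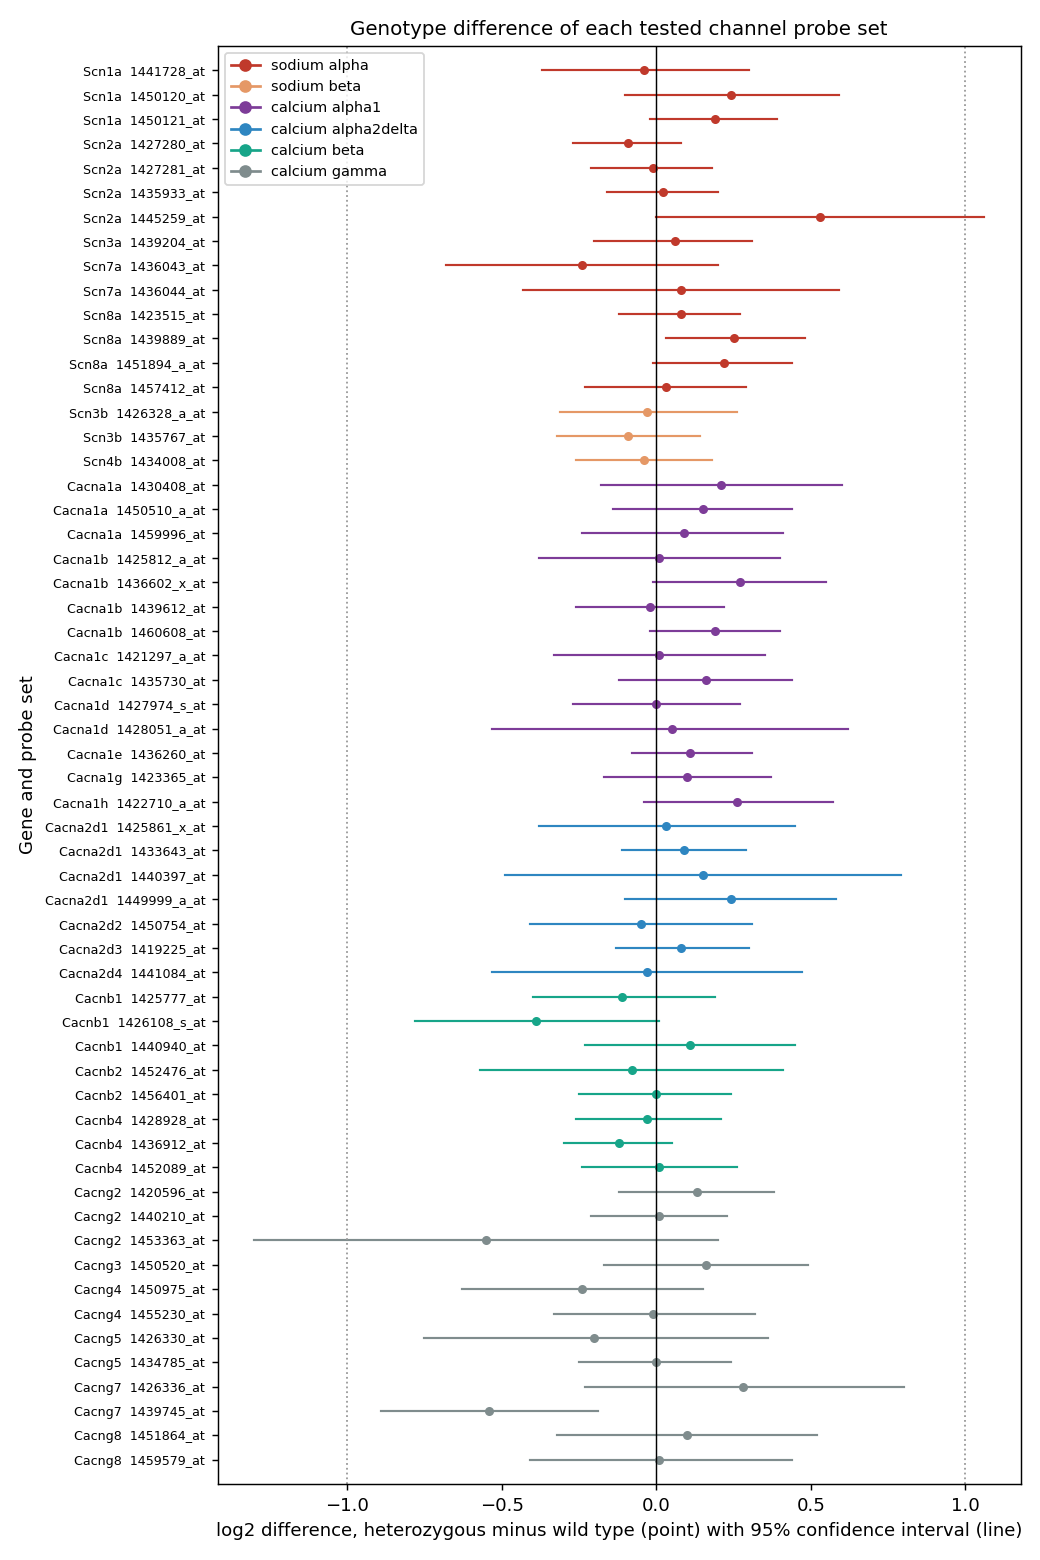
Log2 difference between genotypes (x axis, heterozygous minus wild type) with its 95% confidence interval for each of the 58 tested channel probe sets, coloured by subunit class. Dotted lines mark a doubling and a halving of signal plus 16; the intervals of Scn2a 1445259_at and Cacng2 1453363_at reach past them and those of the other 56 do not.

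Alpha subunits leaned to the higher side in sign, without a call. Of the 12 alpha genes at their brightest probe set, 11 were higher in sign in heterozygous brains, and Cacna1d, at 0.00 after rounding, was lower in sign. The median difference was 0.11. Of the 15 auxiliary genes, 6 were higher in sign and 9 lower, with a median of 0.00. Among all 13024 genes tested, 52.0% were higher in sign, with a median of 0.01. These counts describe lists of related genes measured in the same 6 brains, and no test of a list was made. The neuron markers, taken as another list, were higher in sign at 7 of 7, with a median of 0.04. Markers of striatal projection neurons had a median of 0.10 with 4 of 5 higher in sign, those of cerebellar granule cells 0.10 with 2 of 3, and those of the thalamus 0.17 with 2 of 3. Purkinje cell markers had a median of 0.05 with 2 of 3 higher in sign, and interneuron markers 0.00 with 2 of 5. The part of these markers in the alpha values was not tested.

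By array, the median alpha gene lay 0.11, -0.02 and 0.03 from its own mean on heterozygous 1, 2 and 3, and -0.06, -0.10 and -0.04 on wild type 1, 2 and 3. The auxiliary genes lay at -0.06, -0.03 and 0.00 in heterozygous brains and at 0.00, -0.14 and 0.15 in wild-type brains. For auxiliary genes the 2 outermost values were thus both wild type. Without heterozygous 1, 8 of the 12 alpha genes were higher in sign, with a median of 0.08. That array also had the highest median signal over all probe sets, 34.5. With arrays centred on their medians, 10 of the 12 alpha genes were higher in sign, with a median of 0.07. The median over all probe sets tested was then -0.027. Without wild type 3, 12 of the 15 auxiliary genes were higher in sign, with a median of 0.08, against 4 of 15 without wild type 2.

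**Figure D3:**
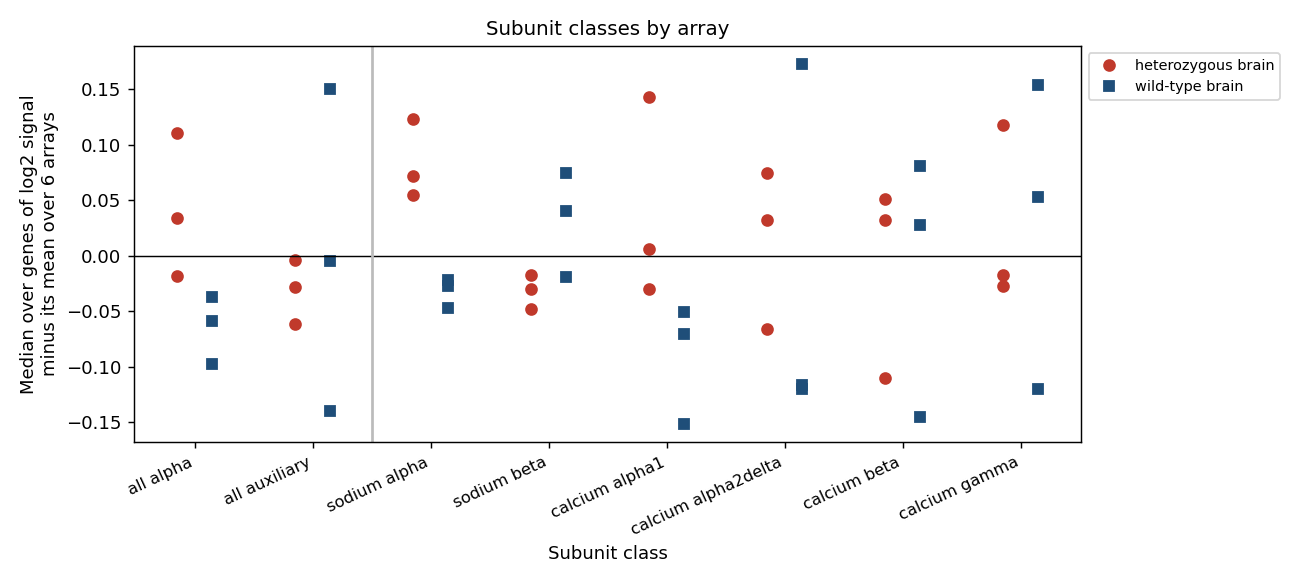
Median over the genes of each subunit class of the log2 signal minus that gene's mean over the 6 arrays (y axis), with 1 point per brain (circles heterozygous, squares wild type). Alpha genes as a whole sit between -0.02 and 0.11 in heterozygous brains and between -0.10 and -0.04 in wild-type brains, while auxiliary genes overlap. The nearest alpha values, of heterozygous 2 and wild type 3, are -0.018 and -0.037, and no test of a class was made.

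Among sodium channel alpha subunits, Scn8a (Nav1.6), the main channel of mature axon initial segments and nodes of Ranvier, had the smallest unadjusted p. It lies on chromosome 15 within 10 Mb of Pphln1, the single channel gene of the list that does. At 1439889_at the signal was 260.1, 269.6 and 236.2 in heterozygous brains and 226.4, 200.7 and 208.0 in wild-type brains. The genotypes did not overlap, and they differed by 0.25 on the log2 scale (SE 0.10, limma adjusted p = 0.956). At 1451894_a_at the values were 231.1, 213.9 and 218.4 against 177.8, 183.7 and 203.9, a difference of 0.22 (SE 0.10). The exact permutation p was 0.1 for each, the smallest that 3 against 3 brains can give. The brightest Scn8a probe set, 1423515_at, overlapped between genotypes, at 1329.2, 1182.8 and 1316.4 against 1296.2, 1112.0 and 1221.0. Its difference was 0.08, with a 95% interval of -0.12 to 0.27. The probe set 1457412_at lay at 0.03, and 1442208_at was below the dim limit.

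Scn1a (Nav1.1), the channel on which fast-spiking interneurons rely, was higher in sign at its brightest probe set, 1450121_at. It measured 816.3, 888.6 and 872.4 in heterozygous brains and 682.5, 837.3 and 744.4 in wild-type brains. One wild-type value lay within the heterozygous range, and the difference was 0.19 (SE 0.09, exact permutation p = 0.2). The other tested Scn1a probe sets stood at 0.24 and -0.04. Scn2a (Nav1.2), the channel of excitatory neurons and of unmyelinated axons, was among the most even members. At 1435933_at it measured 1753.5, 1592.3 and 1754.4 against 1631.9, 1654.9 and 1741.3. The difference was 0.02, with an interval of -0.16 to 0.20, or a ratio of signal plus 16 of 0.90 to 1.15. A second Scn2a probe set, 1427280_at, did not overlap between genotypes and was lower in sign, at 921.9, 914.3 and 873.7 against 1005.1, 922.9 and 966.7. Its difference was -0.09 (SE 0.08), with heterozygous 1 and wild type 2 nearly equal.

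The dim Scn2a probe set 1445259_at went the other way, at 27.1, 35.6 and 54.4 in heterozygous and 16, 16.7 and 34.0 in wild-type brains. The values overlapped and the difference was 0.53 (SE 0.24). A pseudocount of 64 gave 0.25 and a pseudocount of 1 gave 0.81. Scn3a (Nav1.3), a channel most abundant before birth in rodents, measured 200.3, 238.4 and 229.5 against 199.5, 242.0 and 200.7. Both genotypes held the same range, with a difference of 0.06 (SE 0.12). Scn7a, the sodium-sensing relative, lay at 0.08 (SE 0.23) on 1436044_at and at -0.24 (SE 0.20) on 1436043_at.

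The sodium channel beta subunits were lower in sign at each of their 3 probe sets, all close to 0. Scn3b, which changes channel gating and surface level, measured 741.0, 862.9 and 788.0 in heterozygous and 762.6, 969.9 and 816.9 in wild-type brains at its brighter probe set. The difference was -0.09 (SE 0.10), and the dimmer probe set lay at -0.03. Scn4b, abundant in the striatum and linked to resurgent sodium current, measured 686.0, 615.1 and 661.6 against 695.0, 592.8 and 740.5, a difference of -0.04 (SE 0.10). The wild-type values of both genes enclosed the heterozygous ones, apart from the lowest Scn3b value. Of the striatal markers, 5 of 6 were measured, and their summed signal was 3214.8 to 3298.1 in heterozygous and 3029.3 to 3200.7 in wild-type brains.

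**Figure D4:**
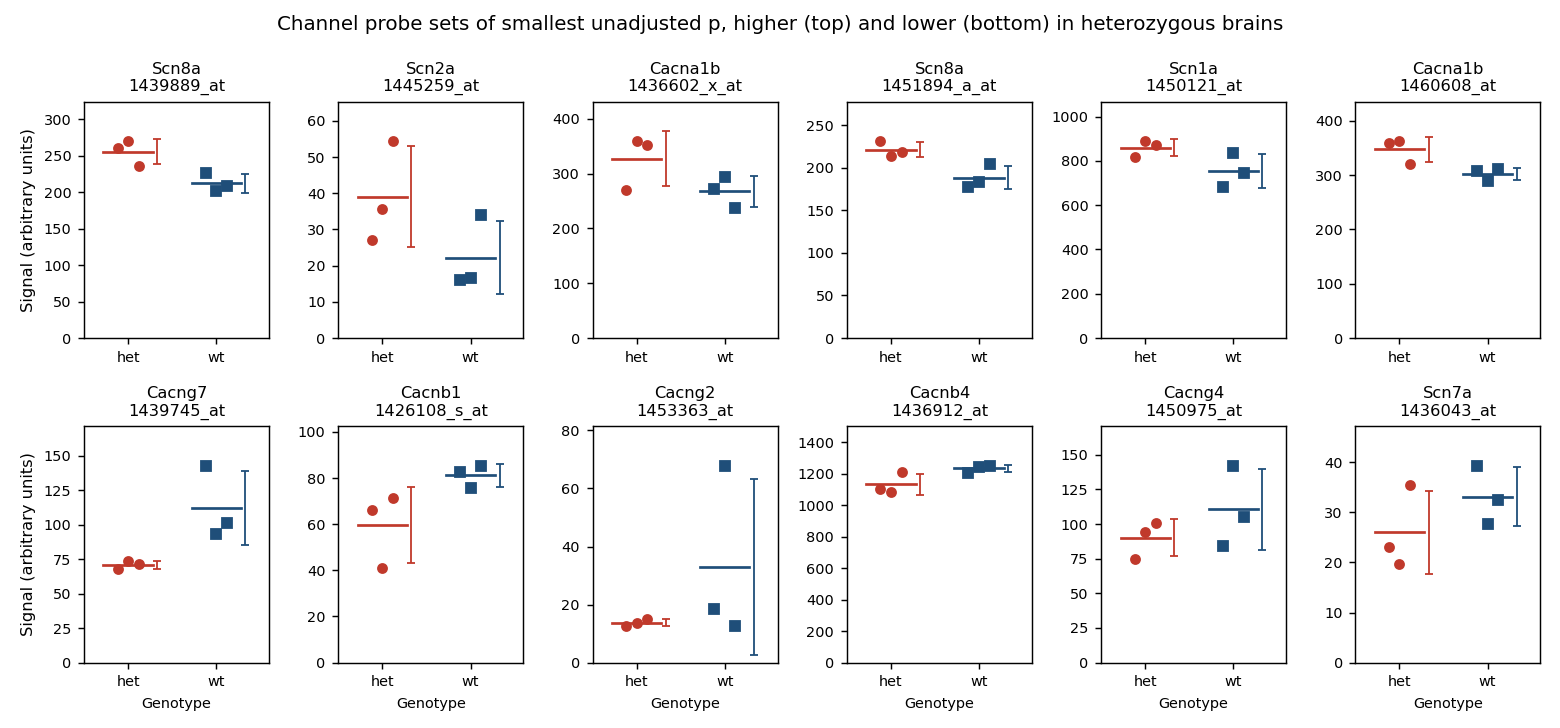
Signal in each brain (y axis, arbitrary units from 0; circles heterozygous, squares wild type, bars the mean, whiskers the SD of 3 brains) for the 6 channel probe sets of smallest unadjusted p in each direction. Scn8a at both probe sets, Cacna1b 1460608_at, Cacng7 and Cacnb1 show no overlap between genotypes, and none passes the adjusted threshold.

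Of the high-voltage-activated calcium channel genes of the synapse, Cacna1b and Cacna1a were tested at several probe sets and Cacna1e at 1. Cacna1b, the N-type channel that triggers transmitter release, measured 359.3, 362.3 and 319.9 in heterozygous and 307.5, 289.8 and 310.5 in wild-type brains at 1460608_at. The genotypes did not overlap, with a difference of 0.19 (SE 0.09, limma adjusted p = 0.956) and an exact permutation p of 0.1. At 1436602_x_at, whose suffix marks probes that can bind related transcripts, values of 270.7, 359.2 and 352.9 overlapped 271.7, 294.2 and 237.8. That difference was 0.27 (SE 0.13), while the other tested Cacna1b probe sets lay at 0.01 and -0.02. Cacna1a, the P/Q-type channel rich in the cerebellum, measured 121.2, 150.3 and 122.6 against 107.8, 127.9 and 113.9. Its 3 tested probe sets lay at 0.09 to 0.21, all higher in sign and all overlapping. Cacna1e, the R-type channel, measured 586.2, 518.9 and 574.9 against 498.1, 517.1 and 531.0, a difference of 0.11 (SE 0.09), with 1 overlapping heterozygous value.

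The L-type channels, which couple activity to gene expression, overlapped between genotypes. Cacna1c measured 168.9, 138.0 and 145.1 in heterozygous and 117.3, 143.9 and 138.7 in wild-type brains, a difference of 0.16 (SE 0.13), and its second probe set lay at 0.01. Cacna1d measured 153.9, 143.5 and 149.8 against 156.9, 126.7 and 166.4, with the heterozygous brains inside the wild-type range. Its difference was 0.00, with an interval of -0.27 to 0.27, and the second probe set lay at 0.05. The T-type channels, which open near rest and support burst firing, in the thalamus among other places, included the largest alpha gene difference. Cacna1h measured 223.0, 168.9 and 173.9 against 170.7, 131.6 and 160.8, and wild type 1 lay within the heterozygous range. The difference was 0.26, with an interval of -0.04 to 0.57 (exact permutation p = 0.2). Cacna1g measured 277.1, 213.8 and 224.6 against 244.5, 197.9 and 219.8, a difference of 0.10 (SE 0.12). In both T-type genes heterozygous 1 was highest and wild type 2 lowest.

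The alpha2delta subunits, of which Cacna2d1 and Cacna2d2 bind gabapentin, stayed close to 0. Cacna2d1 measured 910.7, 1059.0 and 986.5 in heterozygous and 851.0, 938.7 and 976.0 in wild-type brains, a difference of 0.09 (SE 0.09), and its 4 tested probe sets ranged from 0.03 to 0.24. Cacna2d2, strong in Purkinje cells, measured 298.4, 240.4 and 273.2 against 306.4, 206.2 and 344.3. The wild-type brains enclosed the heterozygous ones, and the difference was -0.05 (SE 0.16). It was -0.25 without wild type 2 and 0.09 without wild type 3. The summed signal of the Purkinje cell markers was 6421.4 to 7413.9 in heterozygous and 6598.4 to 6917.5 in wild-type brains. Cacna2d3 measured 620.9, 766.3 and 761.6 against 656.5, 693.6 and 668.4, a difference of 0.08 (SE 0.10). Cacna2d4, best known from photoreceptors, lay at -0.03 (SE 0.23) at a signal near the dim limit.

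Of the calcium channel beta subunits, Cacnb4, whose loss causes the lethargic phenotype in mice, was the brightest. At 1436912_at it measured 1102.7, 1083.3 and 1206.9 in heterozygous and 1203.1, 1244.0 and 1248.9 in wild-type brains. Only heterozygous 3 reached the wild-type range, with a difference of -0.12 and an interval of -0.30 to 0.05. Its other probe sets lay at -0.03 and 0.01. Cacnb1, shared by muscle and brain channels, did not overlap between genotypes at 1426108_s_at, at 66.3, 40.9 and 71.5 against 82.7, 75.6 and 85.3. The difference there was -0.39 (SE 0.18, exact permutation p = 0.1), and it was -0.19 without heterozygous 2. The brighter Cacnb1 probe set lay at 0.11 (SE 0.15) and the third at -0.11 (SE 0.13). Cacnb2, a subunit of heart and brain, measured 244.6, 230.7 and 230.2 against 231.6, 211.3 and 268.1, a difference of 0.00 with an interval of -0.25 to 0.24, and its second probe set lay at -0.08.

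Cacng7, a gamma-family protein that associates with AMPA receptors, had the smallest unadjusted p of all members. At 1439745_at it measured 67.8, 73.7 and 71.5 in heterozygous brains and 142.8, 93.2 and 101.1 in wild-type brains. Every heterozygous brain lay below every wild-type brain. The means were 71.0 ± 2.96 (SD, n = 3) and 112.4 ± 26.6 (n = 3), so the log2 difference was -0.54 (SE 0.16), with an interval of -0.89 to -0.19 and a limma adjusted p of 0.956. The highest value was that of wild type 1, the array with the most pituitary signal. Without it the difference was -0.38, and without both it and heterozygous 3 it was also -0.38. The second Cacng7 probe set, 1426336_at, was opposite in sign at 0.28 (SE 0.23), with overlapping signals of 20.1, 20.7 and 32.2 against 9.42, 16.7 and 26.9. Averaged over both probe sets the difference was -0.13.

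The other gamma genes showed no such separation. Cacng2 (stargazin), which carries AMPA receptors to the synapse and whose loss gives the stargazer mouse, measured 389.4, 409.5 and 344.2 in heterozygous and 410.0, 352.2 and 372.2 in wild-type brains. The difference was 0.01 (SE 0.10), and it was 0.13 at a second bright probe set. Its dim probe set 1453363_at lay at -0.55 (SE 0.34), where wild type 2 measured 67.8 and the other 5 brains 12.5 to 18.4. Without wild type 2 that value was -0.07. Cacng2 lies on chromosome 15, as Pphln1 does, but not within 10 Mb of it. Cacng3 measured 395.5, 407.5 and 367.1 against 264.1, 364.8 and 434.3, a difference of 0.16 (SE 0.15) that was -0.03 without wild type 1 and 0.31 without wild type 3. Cacng8, a partner of hippocampal AMPA receptors, measured 41.3, 55.2 and 46.2 against 52.4, 30.1 and 48.8, a difference of 0.10 (SE 0.19), and 0.01 at its other probe set. Cacng4 lay at -0.01 and -0.24 by its probe sets and Cacng5 at 0.00 and -0.20, each pair overlapping between genotypes.

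Probe sets of the same gene often disagreed in sign. Of 18 genes with several tested probe sets, 9 had all of them on the same side of 0 before rounding and 9 did not. Scn8a, Cacna1a, Cacna1c, Cacna2d1 and Cacng8 were higher in sign throughout, and Scn3b, Cacnb2, Cacng4 and Cacng5 lower in sign throughout. The widest gap, between -0.54 and 0.28, was that of Cacng7.

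Genes that bind, place or regulate these channels were compared through a list of 36 partners. They include ankyrins and cell adhesion proteins of the axon initial segment, intracellular fibroblast growth factors that bind sodium channels, release-site proteins, small GTPases that restrain calcium channels, and the sodium leak channel with its partners. Of these, 31 had a probe set and 27 were tested. None was called by limma, against 0.0148% of all probe sets tested. At an unadjusted p below 0.05 there were 0 in either direction, against 2.43% higher and 2.40% lower of all probe sets tested. With 27 genes, counts of 0 are not far from these shares. In sign, 12 were higher and 15 lower, with a median of 0.00, against 52.0% of all genes tested higher in sign. The smallest unadjusted p on the higher side belonged to Cabp1, a calmodulin relative that tunes calcium channels, at 0.26 (SE 0.13), Unc80, a partner of the sodium leak channel, at 0.13 (SE 0.09), and Fgf11 at 0.19 (SE 0.18). On the lower side they belonged to Nedd4l at -0.18 (SE 0.09), Sptbn4 at -0.15 (SE 0.11) and Fgf14 at -0.23 (SE 0.17). Nedd4l is a ubiquitin ligase that removes sodium channels from the membrane. Sptbn4 is the spectrin of axon initial segments and nodes, and Fgf14 a sodium channel partner. At Nedd4l the genotypes did not overlap, with 527.4, 465.2 and 486.4 in heterozygous and 564.6, 553.7 and 567.3 in wild-type brains. Of all probe sets tested, 4.81% did not overlap in that direction.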

How the data were processed

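RNA from 6 whole brains was labelled from an oligo(dT) primer with One-Cycle reagents, which favours 3′ ends, and hybridised to 1 array per brain, per the labels' protocols. The authors deposited linear probe-set intensity values. Which software summarised the probes is not given in the labels used here. A trimmed mean of 150 on every array shows the deposited intensities were already scaled, so no further normalization was applied. Of 45037 probe sets other than 64 controls, the annotation gave 1 gene for 34945, several for 932, while 9160 have no name in it. RefSeq (GRCm38.p6) gave the current symbol for 34741.

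Values were taken as log2(intensity + 16). Probe sets with a mean at or below the 40th percentile were left out, and 27022 were fitted with limma 3.58.1 (R 4.3.3, lmFit and eBayes with trend, no covariate), two-sided, adjusted over all of them at 0.05. Exact permutation tests over brains are two-sided. Precision is limited by having 3 arrays for each genotype. Each gene stands by its brightest tested probe set.

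Members, lists and tests were chosen with earlier results of these data known. Per-brain values are in text or figures for the main brain subunits and the 6 probe sets of smallest unadjusted p per direction. Of the partners, 3 per direction are named. Marker lists covered neurons, glia, vessels, brain regions, pituitary, muscle, heart, sensory neurons and retina. The lists not described with the results were those of astrocytes, oligodendrocytes, oligodendrocyte precursors, microglia, endothelial cells and heart. These short lists held no call, against 0.0148% of all probe sets tested. Their median log2 differences, in that order, were -0.04, 0.06, -0.04, -0.02, -0.18 and -0.15. The astrocyte list held 1 marker lower at an unadjusted limma p below 0.05, Slc1a3 at -0.27 (SE 0.12), against 2.40% of all probe sets tested. Some sodium channel genes are not reported here. Alternatives were other normalizations, pseudocounts, dim filters and moderation, array weights, a replicate block and leaving out arrays.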

Additional observations from a re-analysis of the deposited data

How the results depend on the processing

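No channel probe set was called under any of the 18 alternatives, and the lowest adjusted p of a member was 0.595, with the replicate block. Over all probe sets, limma's 4 calls became 1 without a dim filter, 1 without the trend and 1 to 14 with 1 array left out. Channel probe sets higher at an unadjusted p below 0.05 numbered 1, and 2 with quantile normalization, 0 with median centring, 2 without a dim filter, 2 with robust moderation, 4 with array weights and 1 to 3 with 1 array left out. Lower ones numbered 1, and 2 with quantile normalization, 2 with centring, 3 without a dim filter, 2 with robust moderation, 2 with array weights and 1 to 2 with 1 array left out. Among all probe sets tested, the share below that p in either direction was 4.83% in the main fit. It was 4.9% with quantile normalization, 5.08% with centring, 5% without a dim filter and 4.88% with robust moderation. With array weights it was 5.29%, and with 1 array left out 4.02 to 6.07%. Probe sets with no overlap, 3 higher and 3 lower, became 5 higher with quantile normalization, 8 higher and 6 lower without heterozygous 3 and wild type 1, an alternative chosen after seeing the data because those arrays held the most pituitary signal, and 4 to 9 higher and 3 to 8 lower with 1 array left out. Smaller groups overlap less often by construction, and the share of all probe sets without overlap is given only for the main setting. The median sodium alpha difference of 0.08 became 0.04 with centring, 0.05 with a pseudocount of 64, 0.10 without both of those arrays, 0.11 as a mean over probe sets and 0.02 to 0.09 with 1 array left out. The median gamma difference of 0.00 became -0.11 as a mean over probe sets. The share of auxiliary probe sets above the limit, 76.9%, became 56.4% with the limit at the 60th percentile, and the alpha share of 65.1% became 51.2%. That limit keeps 18015 of all 45037 probe sets by construction. Auxiliary genes higher in sign numbered 4 to 12 with 1 array left out, against 6. Apart from the array left out, the limit or the averaging, the cause was not tested. Of 607 other values of 35 named probe sets, 587 moved by less than their error, 20 moved further and 0 became a call. None was a call in the main fit, so no call could be reversed.

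Replicate numbers were not used as pairs in the main fit. The deviations of same-numbered brains correlated at 0.08, 0.20 and -0.02. Brains of different numbers were not compared, so these values do not settle whether the numbers pair the samples. With the replicate number as a block, limma called 5 probe sets in all and 0 channel probe sets, with 5 channel probe sets higher and 2 lower at an unadjusted p below 0.05. Of all probe sets tested, 7.01% were then below that p in either direction, against 4.83% in the main fit. The first heterozygous title carries no number and was taken as replicate 1. Signals near the dim limit, such as those of Scn7a and Cacna2d4, limit what can be said of them.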
